A study of Mus musculus with 10 samples.

Results

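The 9 genes described here, Glra1, Glra2, Glra3, Glrb, Gphn, Slc6a5, Slc6a9, Slc12a2 and Slc12a5, make up the glycine receptor, its scaffold, the glycine transporters and the pair of chloride cotransporters that set its driving force. They were chosen by symbol from a table of 24411 genes, all 9 were present, and all 9 passed the filter that left 13287 genes to be tested. The table comes from mRNA sequencing of mouse lumbar spinal cord after paclitaxel, a microtubule-stabilising cancer drug that causes painful neuropathy, or after vehicle, with 5 libraries in each group. The labels give only the tissue and the treatment, with no strain, age, sex, dose or time after treatment, and leave unstated if each library is its own animal. The p-values below therefore describe how far these particular libraries scatter, which may be technical. The study as titled is about calcitonin receptor-like and MLL2 in this model. The question addressed here is whether the transcripts of glycinergic inhibition differed between the groups.

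Glycine is a main fast inhibitory transmitter of the spinal cord. Its receptor is a chloride channel built from α subunits and a β subunit that gephyrin ties to the synapse. Whether an open channel inhibits depends on the chloride gradient: the KCC2 cotransporter (Slc12a5) extrudes chloride from neurons and NKCC1 (Slc12a2) carries it in. Loss of KCC2 function in the dorsal horn is a long-studied route to pain after nerve injury.

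Library totals ran from 3676259 to 7791594 counts, at which 3 counts corresponded to 0.385 to 0.816 CPM, the usual depth-scaled unit of counts. Paclitaxel replicate 3 stood apart from its group. The chi-square per degree of freedom of its counts against the other paclitaxel libraries was 5.08 to 6.88, against 1.62 to 3.06 among those others. Vehicle replicate 1 was, to a lesser extent, the least alike of its group, at 2.78 to 4.53 against 1.92 to 2.77 among the other vehicle libraries. Levels below are CPM scaled with TMM factors, a normalisation that trims extreme genes. In bulk tissue, fewer cells of a type and less RNA per cell cannot be told apart. The tissue label was checked on markers. The 4 lumbar Hox genes (Hoxa10, Hoxc10, Hoxd10 and Hoxd9) summed to 179.6 to 225.4 CPM, scaled to the library total, in vehicle libraries and 191.9 to 211.9 in paclitaxel libraries. The 5 neuronal markers summed to 4349 to 4479 CPM and 4305 to 4575 CPM in the same order. Of 4 sensory ganglion markers (Trpv1, Mrgprd, Scn10a and Nppb), Mrgprd was at 0 in every library and the sum stayed at or under 0.553 CPM. The 4 skeletal muscle markers summed to at most 2.38 CPM.

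Slc12a5, whose transcripts can begin at different first exons, is shown by its start sites because its count was made against a model with one of them. RefSeq gives the gene 2 starts on the + strand of chromosome 2 (GRCm38.p6), about which KCC2 isoforms with different first exons are made. The windows run from 250 bases before to 50 after each start, with matches to CANNTG on either strand, the E-box letters read by basic helix-loop-helix factors, in capitals.
Slc12a5 upstream start, chr2:164960596-164960895: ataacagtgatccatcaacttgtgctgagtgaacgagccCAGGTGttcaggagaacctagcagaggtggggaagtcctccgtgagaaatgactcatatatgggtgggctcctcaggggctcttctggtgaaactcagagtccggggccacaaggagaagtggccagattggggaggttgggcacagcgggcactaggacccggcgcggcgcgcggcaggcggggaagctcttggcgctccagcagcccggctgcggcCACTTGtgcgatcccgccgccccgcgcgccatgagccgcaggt
Slc12a5 downstream start, chr2:164967738-164968037: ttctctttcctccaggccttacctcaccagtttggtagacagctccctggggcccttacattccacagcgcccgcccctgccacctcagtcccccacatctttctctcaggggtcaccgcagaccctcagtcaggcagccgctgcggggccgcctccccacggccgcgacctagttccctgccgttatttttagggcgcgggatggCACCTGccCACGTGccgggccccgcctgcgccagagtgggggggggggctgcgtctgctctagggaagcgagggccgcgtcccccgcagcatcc
The single transcript that the count table lists for the gene was placed by its match in GENCODE, a public gene annotation. That match begins at position 164967983, in the downstream window, so it does not hold the upstream first exon. The gene's count does not separate transcripts of the 2 starts, which share the later exons. Each window held 2 E-boxes, and the downstream window held the palindromic form CACGTG, which overlaps CANNTG. Over 32851 RefSeq windows of the same length, 72.3% held CANNTG and 7.15% held CACGTG. The letters GCGNGGGCG of EGR factors, searched on both strands, were in neither window and in 5.55% of all windows. A match is a description of letters and not evidence of binding. RefSeq windows were found for 7 of the 9 genes, with none for Glra1 and Slc12a2.

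Levels per kilobase used the lengths of GENCODE transcripts matched by accession to the listed ones. Both listed transcripts of Glrb matched the same length, as did both of Slc6a5. On that scale the 9 levels spanned a wide range, and their order could be read across all 10 libraries. Slc12a5 was highest at 150.7 ± 7.76 CPM per kb (SD, n = 10), and its lowest library (139 CPM per kb) lay above the highest library of Glrb. Glrb followed at 119 ± 6.48 and Slc6a9 at 103 ± 11.2 CPM per kb, and these neighbours overlapped. Glra1 (68.2 ± 13.9), Slc6a5 (66.2 ± 14.2) and Slc12a2 (48.6 ± 2.98 CPM per kb) came next. Each of these overlapped its neighbour in order, and the lowest Slc6a9 library (77.7 CPM per kb) lay under the highest Glra1 library (83.9 CPM per kb). Gphn (20.3 ± 1.62), Glra2 (3.27 ± 0.436) and Glra3 (0.784 ± 0.164 CPM per kb) did not overlap with their neighbours. The expected counts behind the values were lowest for Glra3, with 15 to 33 per library, and highest for Slc12a5, with 3081 to 7107.

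No member passed the test between paclitaxel and vehicle. In edgeR's quasi-likelihood test the adjusted p-values of the 9 genes ran from 0.804 to 0.97, where 0 of 13287 genes (0%) passed and 6.07% of them had an unadjusted p under 0.05. None of the 9 had an unadjusted p under 0.05, and for none did the groups fail to overlap, as they did for 1.09% of tested genes. On the log2 scale, 5 members were higher and 4 lower with paclitaxel, with a median difference of 0.06, against 49.1% higher and a median of -0.003 over all tested genes. Without paclitaxel replicate 3 the values were -0.09 for Glra1, 0.07 for Glra2, 0.16 for Glra3, 0.06 for Glrb, 0.10 for Gphn, -0.06 for Slc6a5, 0.004 for Slc6a9, 0.10 for Slc12a2 and -0.05 for Slc12a5, and none passed (lowest edgeR adjusted p = 0.972).

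**Figure D1:**
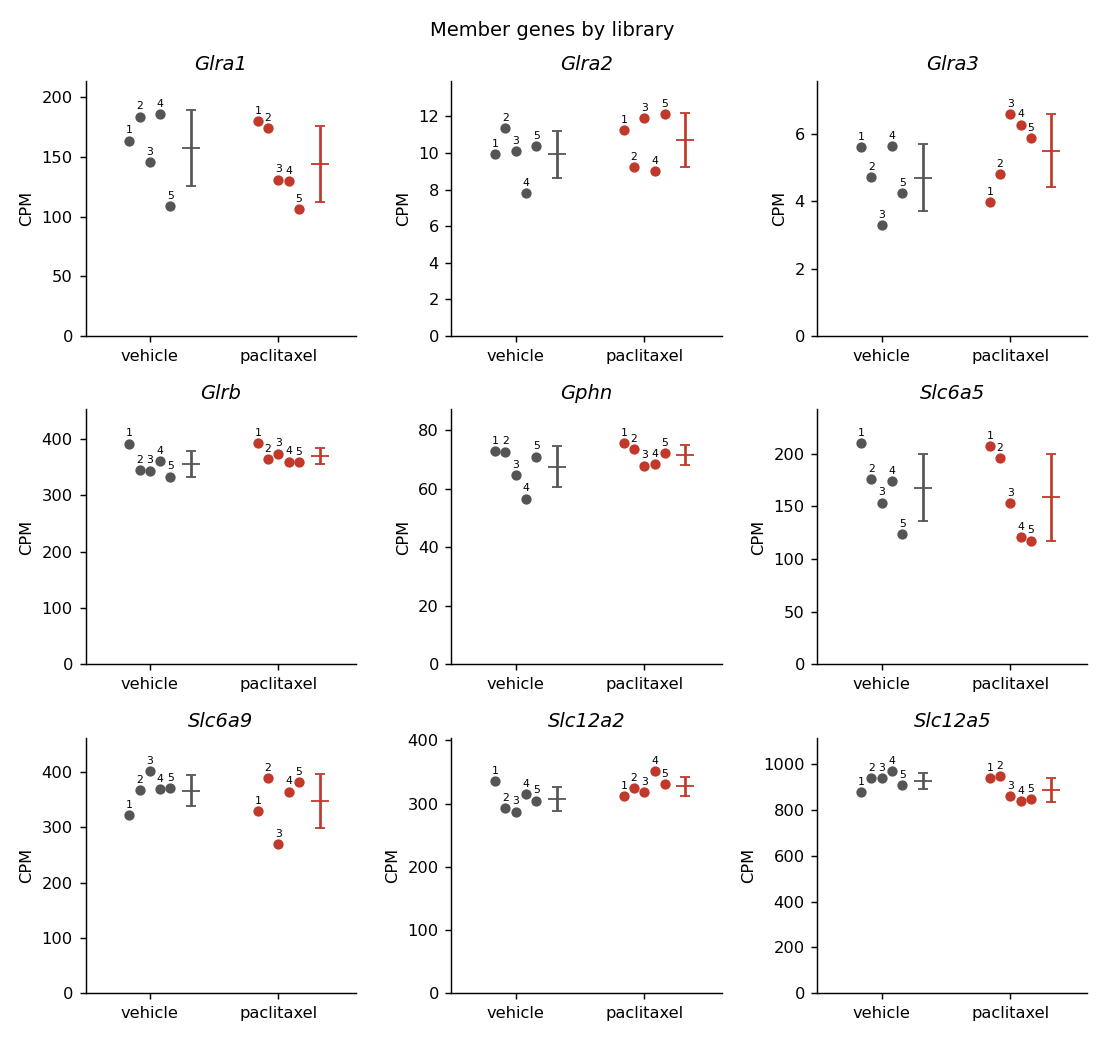
Level of each of the 9 genes in each library (points, numbered by replicate; vertical axes in CPM from 0), with the mean and SD of each group of 5 beside the points. The groups overlap in every panel, and Glra1 and Slc6a5 are spread widely within both groups, with replicate 5 lowest in each.

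Glra1, on chromosome 11 (GRCm38) from 55514239 to 55608198, encodes the α1 subunit, which helps form the ligand-binding sites of the adult spinal receptor. Its level was 164, 184, 146, 186 and 109 CPM in vehicle replicates 1 to 5. In paclitaxel replicates 1 to 5 it was 180, 174, 131, 130 and 106 CPM. Both groups held high and low libraries, and the ranges lay almost on top of each other. The vehicle mean was 158 ± 31.9 CPM and the paclitaxel mean 144 ± 31.7 CPM (SD, n = 5 each), a log2 fold change of -0.12 (SE 0.20, 95% interval -0.57 to 0.33, edgeR adjusted p = 0.943). That interval allows anything from 0.672-fold to 1.26-fold, so a moderate change of Glra1 was not detectable in this unpaired fit. With replicate number as a block the value was again -0.12 (edgeR unadjusted p = 0.116 against 0.553 without the block, adjusted p = 0.80). Without vehicle replicate 5 the value was -0.24, and without paclitaxel replicate 5 it was -0.03.

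Glra2 encodes the α2 subunit, which predominates in the fetal cord and gives way to α1 after birth. Its vehicle mean was 9.92 ± 1.30 CPM and its paclitaxel mean 10.7 ± 1.48 CPM (SD, n = 5 each), with ranges of 7.81 to 11.4 and 9.0 to 12.1 CPM. The log2 fold change was 0.11 (SE 0.14, edgeR adjusted p = 0.917), and 0.04 without vehicle replicate 4, the lowest library of all. Glra3 encodes the α3 subunit, found in the superficial dorsal horn, where its phosphorylation downstream of prostaglandin E is a known step of inflammatory pain. Vehicle replicates 1 to 5 held 5.60, 4.72, 3.3, 5.64 and 4.23 CPM of Glra3, and paclitaxel replicates 1 to 5 held 3.98, 4.81, 6.58, 6.28 and 5.87 CPM. Above every vehicle library stood 3 paclitaxel libraries, while paclitaxel replicate 1 lay below all vehicle libraries but replicate 3. Its log2 fold change of 0.23 was the largest of the 9 and also among the least certain (SE 0.20, 95% interval -0.18 to 0.64, edgeR adjusted p = 0.852). It ranged from 0.14 without vehicle replicate 3 to 0.32 without paclitaxel replicate 1. Adjusted for GC content and transcript length it was 0.097, and then no longer the largest in size.

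Among α transcripts, per kilobase, Glra1 made up 94.7 ± 1.31% with vehicle and 93.6 ± 1.88% with paclitaxel (SD, n = 5 each). Glra2 took 4.37 ± 1.22% and 5.10 ± 1.5%, and Glra3 0.976 ± 0.201% and 1.29 ± 0.451%, in the same order. The lowest α1 share of each group, 92.6% with vehicle and 91.0% with paclitaxel, was in its replicate 5. The count ratio of Glra1 to Glra2, the adult against the juvenile α subunit, was 16.3 ± 4.84 with vehicle and 13.8 ± 4.00 with paclitaxel (SD, n = 5 each). The log2 difference was -0.24 (95% interval -0.91 to 0.42 by inversion of the permutation test), and the difference did not pass (two-sided exact permutation p = 0.421, and 0.631 adjusted over the 3 ratios tested). It was -0.09 without paclitaxel replicate 5 or without vehicle replicate 4, and -0.38 without vehicle replicate 5.

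Glrb encodes the β subunit, whose intracellular loop binds gephyrin. It lies on chromosome 3 from 80843598 to 80913660. Vehicle replicates 1 to 5 were at 391, 344, 344, 360.5 and 333 CPM, and paclitaxel replicates 1 to 5 at 393, 363, 373, 359 and 358 CPM. All 5 paclitaxel libraries were above the vehicle mean, though vehicle replicate 1 exceeded all but one of them. The means were 355 ± 22.8 and 369 ± 14.5 CPM (SD, n = 5 each), and the log2 fold change was 0.06 (SE 0.05, edgeR adjusted p = 0.851), with 1.12-fold at the top of its 95% interval. It was 0.10 without vehicle replicate 1 and 0.04 without vehicle replicate 5. The α transcripts summed to 0.640 ± 0.114 per β transcript with vehicle and 0.568 ± 0.102 with paclitaxel on the per-kilobase scale (SD, n = 5 each), and these overlapped too.

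Gphn encodes gephyrin, which anchors glycine and GABA-A receptors at synapses and also makes the molybdenum cofactor. Its vehicle mean was 67.6 ± 6.96 CPM and its paclitaxel mean 71.6 ± 3.32 CPM (SD, n = 5 each), from 56.6 to 72.9 and from 67.9 to 75.7 CPM. All 5 paclitaxel libraries were above the vehicle mean and vehicle replicate 4 was the lowest library. The log2 fold change of 0.08 (SE 0.07, edgeR adjusted p = 0.855) came to 0.03 without that library and to 0.11 without vehicle replicate 1.

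Slc6a5 encodes GlyT2, the transporter that refills the terminals of glycinergic neurons and marks those cells. It lies on chromosome 7 from 49906984 to 49963864. Vehicle replicates 1 to 5 held 210.4, 176, 154, 174 and 124 CPM, and paclitaxel replicates 1 to 5 held 207, 196, 153, 121 and 117 CPM. The highest library of each group was its replicate 1 and the lowest its replicate 5. The means were 168 ± 31.8 and 159 ± 41.3 CPM (SD, n = 5 each), with a log2 fold change of -0.07 (SE 0.21, 95% interval -0.55 to 0.40, edgeR adjusted p = 0.97). Slc6a5 had no settled direction: its value was -0.18 without paclitaxel replicate 1, and 0.01, 0.02 and 0.03 without paclitaxel replicate 4, paclitaxel replicate 5 and vehicle replicate 1.

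Slc6a9 encodes GlyT1, the mainly astrocytic transporter that clears glycine from the cleft. Vehicle replicates 1 to 5 were at 322, 368, 402, 369 and 371 CPM, and paclitaxel replicates 1 to 5 at 329.5, 389.6, 270.2, 365 and 381 CPM. Paclitaxel replicate 3, the library that stood apart over all genes, was the lowest of the 10, and the others overlapped closely. The means were 366 ± 28.5 and 347 ± 48.8 CPM (SD, n = 5 each), with a log2 fold change of -0.08 (SE 0.09, edgeR adjusted p = 0.902) that became 0.004 without that library. The 5 astrocyte markers (Gfap, Aqp4, Aldh1l1, Gja1 and Slc1a2) summed to 4397 to 4843 CPM with vehicle and 4533 to 5118 CPM with paclitaxel, with 4 of 5 higher and 0 passing. The ratio of Slc6a5 to Slc6a9 counts, neuronal against glial uptake, was 0.464 ± 0.122 and 0.467 ± 0.142 (SD, n = 5 each). Its log2 difference was -0.009 (95% interval -0.63 to 0.59; exact permutation test, two-sided, p = 0.984, also 0.984 adjusted over the 3 ratios), and it changed sign with several single libraries left out.

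Slc12a2 had the lowest p of the 9 genes. NKCC1 is expressed by glia, endothelium and primary afferents as well as by neurons. Vehicle replicates 1 to 5 were at 335, 293, 287, 315 and 305 CPM, and paclitaxel replicates 1 to 5 at 312, 325, 318, 351 and 331 CPM. All 5 paclitaxel libraries stood above the vehicle mean, and vehicle replicate 1 stood above all of them except replicate 4. The means were 307 ± 19.0 and 327 ± 15.2 CPM (SD, n = 5 each), a log2 fold change of 0.09 (SE 0.05, 95% interval -0.02 to 0.20, edgeR unadjusted p = 0.0955, adjusted p = 0.804). The value was 0.13 without vehicle replicate 1 and 0.07 without paclitaxel replicate 4. Beside it, the 4 endothelial markers summed to 112 to 185 CPM with vehicle and 126 to 195 CPM with paclitaxel, and the 5 oligodendrocyte markers to 20466 to 22786 and 20151 to 23597 CPM. Of the endothelial markers, Slco1a4 was higher with paclitaxel (log2 fold change 0.32, SE 0.13, edgeR unadjusted p = 0.0289, adjusted p = 0.792) and 3 were lower. The part of either cell type in the Slc12a2 value was not tested.

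Slc12a5 was the most abundant member. It was at 877, 940.2, 942, 970.3 and 911 CPM in vehicle replicates 1 to 5 and at 941, 948, 862, 841 and 849.8 CPM in paclitaxel replicates 1 to 5. Paclitaxel replicates 3, 4 and 5 lay below every vehicle library, while replicates 1 and 2 lay among the highest. The means were 928 ± 35.2 and 888 ± 51.9 CPM (SD, n = 5 each), a log2 fold change of -0.06 (SE 0.05, 95% interval -0.16 to 0.04, edgeR adjusted p = 0.831). The interval reaches down to 0.894-fold. It describes the scatter of these libraries, so a larger loss of Slc12a5 mRNA in lumbar cord is not excluded. The log2 fold change was -0.04 without paclitaxel replicate 4 and -0.08 without paclitaxel replicate 2.

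The ratio of Slc12a5 to Slc12a2 counts needs no depth scaling and sets the transcripts of the chloride exporter against those of the importer in whole tissue. Because Slc12a2 is also expressed outside neurons, the ratio does not measure chloride transport in neurons. In vehicle replicates 1 to 5 it was 2.62, 3.21, 3.28, 3.08 and 2.99. In paclitaxel replicates 1 to 5 it was 3.02, 2.92, 2.71, 2.39 and 2.57. All 5 paclitaxel libraries were below the vehicle mean and 3 vehicle libraries were above every paclitaxel library, but vehicle replicate 1 was among the lowest. The means were 3.04 ± 0.259 and 2.72 ± 0.254 (SD, n = 5 each), and the log2 difference was -0.16 (95% interval -0.35 to 0.03), or 0.897-fold. The difference did not pass (exact permutation test, two-sided, p = 0.0952, and 0.286 adjusted over the 3 ratios, where the smallest possible value before adjustment is 0.00794). Without paclitaxel replicate 3 it was -0.16 (exact permutation p = 0.127, adjusted p = 0.381). Without vehicle replicate 1 it was -0.21 (exact permutation p = 0.0317, adjusted p = 0.0952), and without paclitaxel replicate 4 it was -0.11 (0.19 and 0.571).

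**Figure D2:**
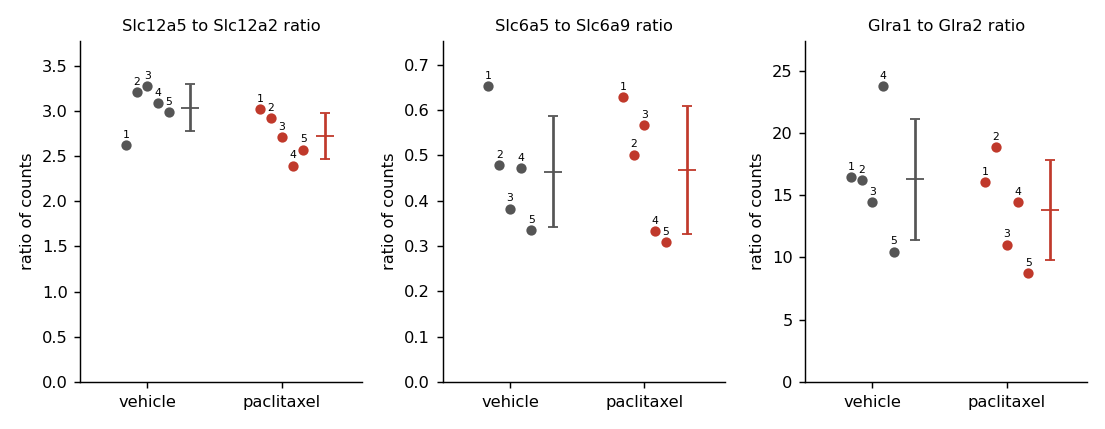
Ratio of counts of Slc12a5 to Slc12a2, Slc6a5 to Slc6a9 and Glra1 to Glra2 in each library (points, numbered by replicate; axes from 0), with the mean and SD of each group of 5. The Slc12a5 to Slc12a2 ratio runs from 2.39 to 3.02 with paclitaxel and from 2.62 to 3.28 with vehicle.

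The direction of each member followed the GC content of its transcripts. The 5 genes with a higher value after paclitaxel had GC contents of 35.2% (Glra3), 40.8% (Glrb), 41.3% (Glra2), 44.2% (Slc12a2) and 47.0% (Gphn). The 4 with a lower value had 52.4% (Glra1), 54.2% (Slc6a5), 57.0% (Slc6a9) and 58.3% (Slc12a5). The same tilt ran through the whole table: 76.5% of the 2823 genes under 45% GC were higher with paclitaxel, with a median log2 fold change of 0.07, against 25.1% of the 3464 genes over 55% GC, with a median of -0.06. The mean GC content of all counts was 50.7 ± 0.156% with paclitaxel and 50.9 ± 0.192% with vehicle (SD, n = 5 each; exact permutation test, two-sided, p = 0.127). Vehicle replicate 1 was at 50.57%. Every other vehicle library was at 50.91% or above, over the highest paclitaxel library at 50.87%. With each library adjusted by loess for GC content and transcript length, Slc12a2 was at 0.04, Slc12a5 at -0.007 and Glrb at -0.02, and the value farthest from 0 was that of Glra1 at -0.10 (edgeR adjusted p from 0.989 to 0.991). The log2 difference of the Slc12a5 to Slc12a2 ratio was then -0.04 (exact permutation test, two-sided, p = 0.595), a check added after the data were seen.

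**Figure D3:**
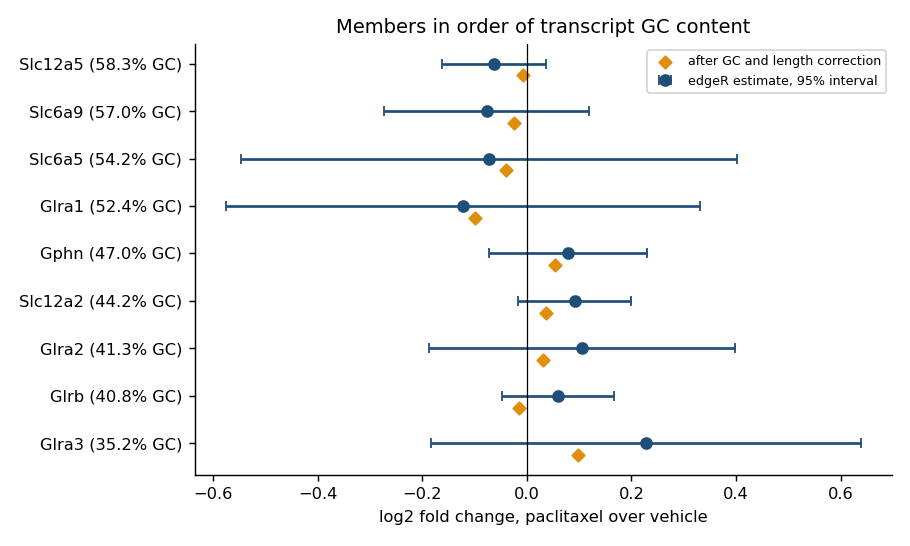
Log2 fold change of each gene, paclitaxel over vehicle (horizontal axis), with genes ordered by transcript GC content; circles and bars are edgeR estimates with 95% intervals from 5 libraries a group, and diamonds are the values after correction for GC content and length. The 5 genes of low GC content lie right of 0 and the 4 of high GC content left of it, and every interval includes 0.

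Glra1 and Slc6a5 differed between libraries far more than genes of like abundance, in both groups. The within-group SD of log2 CPM was 0.32 for Glra1 and 0.33 for Slc6a5. Among genes with a mean within 2-fold of theirs, the median SD was 0.10 for both, and 99.2% of 2742 genes and 99.4% of 2522 genes had a smaller one. Slc6a9 was also above most of its peers (SD 0.17, 94.6% of 977 genes smaller), while the SDs of the other 6 members exceeded those of 37.9% to 53.3% of their peers.

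**Figure D4:**
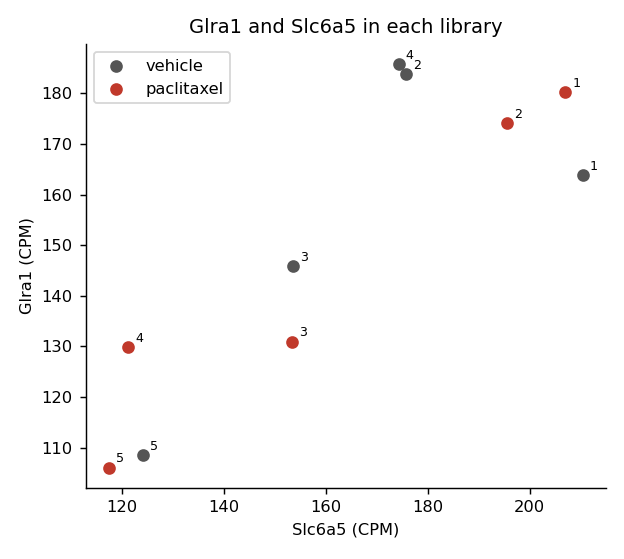
Glra1 against Slc6a5 level in each library, both in CPM on axes that do not start at 0, with points coloured by group and numbered by replicate. Libraries low in one gene are low in the other, and replicate 5 of both groups sits at the bottom left, at 106 and 109 CPM of Glra1.

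The levels of Glra1 and Slc6a5 went up and down together across the 10 libraries, which share 1 depth scaling (Pearson's r = 0.88, permutation p = 0.00157, adjusted p = 0.0565 over the 36 pairs of members; Spearman's rho = 0.758, permutation p = 0.0148, adjusted p = 0.221). The r was 0.771 without the 2 libraries farthest from the median of Glra1, and 0.878 after each group was centred on its mean. None of the 36 pairs passed an adjusted p of 0.05. The next in order were Glra3 with Slc12a2 (r = 0.75, permutation p = 0.0133, adjusted p = 0.239; rho = 0.745, permutation p = 0.0177, adjusted p = 0.221; r = 0.635 without 2 libraries) and Glra1 with Slc12a5 (r = 0.701, permutation p = 0.0293, adjusted p = 0.281; rho = 0.745, permutation p = 0.0184, adjusted p = 0.221; r = 0.814 without 2 libraries). Slc12a2 and Slc12a5 ran in opposite directions (r = -0.671, permutation p = 0.0367, adjusted p = 0.281; rho = -0.564, permutation p = 0.0962, adjusted p = 0.422; r = -0.505 without 2 libraries). With each group centred on its mean, r was -0.566 for Slc12a2 with Slc12a5. It was 0.699 for Glra3 with Slc12a2 and 0.691 for Glra1 with Slc12a5.

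Of 10313 other genes with a mean of at least 10 CPM, those nearest to Glra1 in pattern over the 10 libraries were Dync1h1, the heavy chain of the dynein motor (r = 0.97), Glg1 (0.968) and Sorl1, a sorting receptor (0.963). Nearest to Slc12a5 were Ap2a1, a subunit of the endocytic adaptor AP2 (0.964), C2cd2l (0.938) and Rrp12 (0.938), and nearest to Slc12a2 were Wdr43 (0.92), Psip1 (0.911) and Tlr3 (0.91). These genes were picked as the highest correlations, so the coefficients describe the choice and carry no test.

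Other genes of the glycine synapse and of chloride handling showed small differences in both directions. Of 57 such genes listed, 56 were in the table and 51 were tested. None passed, 24 were higher and 27 lower, and the median log2 fold change was -0.02. An unadjusted p under 0.05 was reached by 6 of the 51 (1 higher, 5 lower), against 6.07% of all tested genes, and by 4 with the GC and length adjustment, against 4.53% of all. Of the 6, Dynll2, Slc32a1 and Bdnf were among those 4, and 6030419C18Rik, Neto2 and Ckb were not (edgeR unadjusted p = 0.251, 0.179 and 0.409). The other of the 4 was Gabarap, a gephyrin- and GABA-A receptor-binding protein named here after its values were seen, at 0.12 with the adjustment (edgeR unadjusted p = 0.042) and 0.11 without it.

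Among postsynaptic partners of gephyrin and of inhibitory receptors, 5 of 17 were higher and 12 lower. The lowest p belonged to Dynll2, a dynein light chain that binds gephyrin (log2 fold change -0.12, SE 0.05; edgeR unadjusted p = 0.0194), and 6030419C18Rik, now named Insyn1, a component of inhibitory synapses (-0.16, SE 0.07; 0.0317). After the GC and length correction they stood at -0.10 and -0.06. In the list of glycine synthesis, cleavage and vesicle loading, 3 of 6 tested genes were higher. Slc32a1, the vesicular transporter that loads both GABA and glycine, had the lowest p of all 51 (-0.19, SE 0.06; edgeR unadjusted p = 0.00406, adjusted p = 0.792) and a value of -0.10 after the correction. It is also 1 of 4 inhibitory neuron markers, of which 2 were higher and 2 lower. Gad2 was at 0.18 (SE 0.07, edgeR unadjusted p = 0.0164, adjusted p = 0.792), Gad1 at 0.009 (SE 0.06) and Pax2 at -0.12 (SE 0.10). Gcsh, a protein of the glycine cleavage system, was at 0.10 (SE 0.08) and Dld, an enzyme of that system, at 0.05 (SE 0.06). Glra4, for a further α subunit, averaged 0.292 CPM and was not tested, and the cofactor genes Mocs1, Mocs3 and Mocs2 were at -0.23 (SE 0.15), 0.22 (SE 0.18) and 0.07 (SE 0.07).

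Among other cation-chloride cotransporters, 4 of 7 were tested, with 2 higher and 2 lower. The lowest p belonged to Slc12a9 at -0.10 (SE 0.10) and to the potassium-chloride cotransporter genes Slc12a4 at -0.09 (SE 0.11) and Slc12a7 at 0.11 (SE 0.19). Of kinases and partners that act on KCC2 and NKCC1, 9 of 13 were higher. Neto2, an auxiliary protein that binds KCC2, lay between 32.1 and 38.0 CPM with vehicle and between 38.2 and 42.9 CPM with paclitaxel. Of the 51 tested partner genes in all lists, only Neto2 had groups that did not overlap, against 1.09% of all tested genes. Its log2 fold change was 0.23 (SE 0.08; edgeR unadjusted p = 0.00707, adjusted p = 0.792), and 0.11 after the correction (its transcripts have 36.5% GC). Ckb, brain creatine kinase, which also binds KCC2, was at -0.11 (SE 0.05; 0.0309), and at -0.03 after the correction. Bdnf, the neurotrophin whose release has been reported to lower KCC2 in the dorsal horn after nerve injury, had a vehicle mean of 10.2 ± 1.89 CPM. Its paclitaxel mean was 8.03 ± 0.596 CPM (SD, n = 5 each). The log2 difference was -0.32 (SE 0.15; edgeR unadjusted p = 0.0487, adjusted p = 0.80), and -0.40 after the correction (unadjusted p = 0.014). Among other chloride and bicarbonate routes, 3 of 8 were higher, with the chloride-proton exchanger gene Clcn3 at 0.11 (SE 0.06), the anion exchanger gene Slc4a3 at -0.11 (SE 0.06) and Slc4a10 at 0.11 (SE 0.09).

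**Figure D5:**
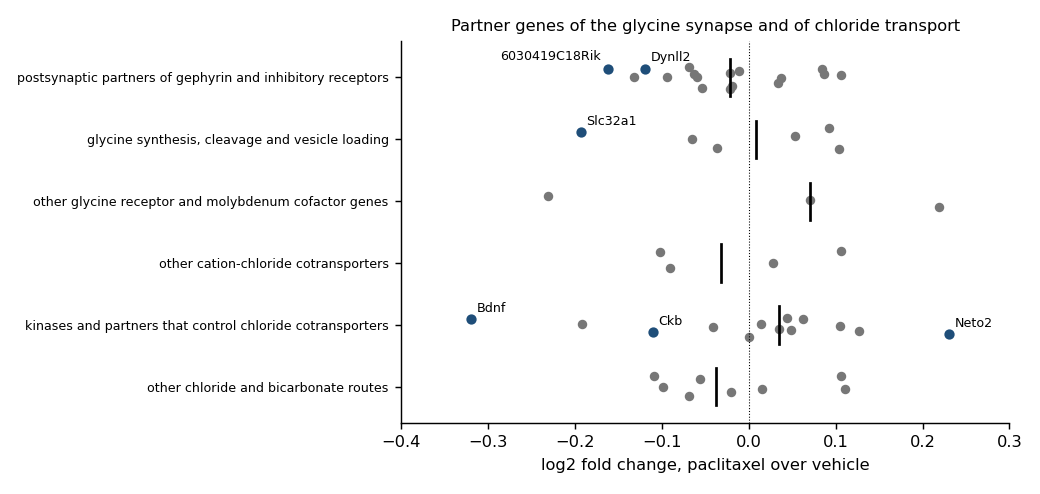
Log2 fold change, paclitaxel over vehicle, of the 51 tested partner genes by list (grey points), with list medians as black bars and the 6 genes at an unadjusted p under 0.05 in blue and named. Vertical scatter within a list has no meaning; the medians lie between -0.04 and 0.07.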

How the data were processed

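The authors deposited 1 table of expected counts per gene (RSEM estimates, which need not be whole) for 10 libraries. The tools named per the submitters' processing notes are RSEM, STAR and edgeR 4.2.0, and the build is mm10. Aligner and quantifier versions, gene annotation and strandedness were not stated there. Expected counts were rounded to whole numbers, which changed 5.04% of values. Genes were kept by filterByExpr (minimum count 10, minimum total 15), scaled by TMM and tested with edgeR 4.0.16 in R 4.3.3 (robust quasi-likelihood, all 10 libraries, no covariate, Benjamini-Hochberg adjustment, threshold 0.05). Log2 CPM used a prior count of 2. Transcript lengths and GC contents were means over GENCODE transcripts matched by RefSeq accession, or by symbol where no accession matched. Ratios were compared by exact permutation over 252 assignments, with 95% intervals by inversion of that test, and correlations by 100000 permutations. The fits were tested on simulated data.

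The 9 genes and all gene lists were chosen with earlier results of these data known. All 9 genes are named; of each partner list up to 3 genes of lowest p are named (1 such gene is not reported here), and for Glra1, Slc12a5 and Slc12a2 the 3 genes of highest correlation. Replicate numbers are shared by the groups. Over all tested genes, same-numbered libraries deviated together weakly or not at all (r from -0.10 to 0.14), so they were not treated as pairs. The choice mattered for Glra1 and Slc6a5. With replicate number as a block their edgeR unadjusted p was 0.116 and 0.28, against 0.553 and 0.735 without it. No pair of libraries of the same group was alike within counting noise. Only Slc6a9 overlaps another counted gene, Ccdc24 on the opposite strand, with 44 counts in all against 18509. Alternatives covered scaling, filter, DESeq2 1.42.0, limma-voom, the block, GC content and length, and libraries left out.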

Additional observations from a re-analysis of the deposited data

How the results depend on the processing

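Over 20 alternatives none of the 9 genes passed an adjusted p of 0.05, and 173 of 180 values kept their direction. Those that reversed were Glrb at -0.02 (-0.0159) with the GC and length adjustment, Glra2 at -0.00027 and Slc6a9 at 0.0051 without paclitaxel replicate 3 and vehicle replicate 4 together, Slc6a9 at 0.0041 without paclitaxel replicate 3, and Slc6a5 at 0.01, 0.02 and 0.03 without paclitaxel replicate 4, paclitaxel replicate 5 and vehicle replicate 1; the cause was not tested. With 1 library left out, the values ran from -0.24 to -0.03 for Glra1, 0.04 to 0.16 for Glra2, 0.14 to 0.32 for Glra3, 0.04 to 0.10 for Glrb, 0.03 to 0.11 for Gphn, -0.18 to 0.029 for Slc6a5, -0.12 to 0.0041 for Slc6a9, 0.07 to 0.13 for Slc12a2 and -0.08 to -0.04 for Slc12a5. The log2 ratio differences ran from -0.21 to -0.11 (Slc12a5 to Slc12a2), -0.38 to -0.09 (Glra1 to Glra2) and -0.13 to 0.13 (Slc6a5 to Slc6a9), the last being above 0 at 0.10, 0.13, 0.12, 0.01 and 0.0068 without paclitaxel replicates 4 and 5 and vehicle replicates 1, 2 and 4. Over all genes, 0 passed in edgeR with any 1 library left out, 1 passed in DESeq2 and 1 in edgeR with the replicate block. With that block Glra1 was at -0.12 and Slc6a5 at -0.09 (edgeR unadjusted p = 0.116 and 0.28, adjusted p = 0.80 and 0.843). The Slc12a5 to Slc12a2 ratio gave p = 0.188 in an exact sign-flip test of 5 differences, which cannot go below 0.0625. Over all tested genes, 5 of 10 libraries correlated best with their own number among the 5 of the other group. Genes at an unadjusted p under 0.05 numbered 806, and 1299 without vehicle replicate 1, 515 without vehicle replicate 3 and 508 without paclitaxel replicate 3 and vehicle replicate 4. That pair was left out together because the earlier analysis of these data had done so. Low counts limit Glra3 most, at 15 to 33 per library.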

Other observations

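Glra1 and Slc6a5 levels were set against 10 measures of each library (marker sums, long-transcript share, GC content and total), 20 relations over 10 libraries, and none passed after adjustment. Glra1 against the sum of neuronal markers had r = -0.71 (permutation p = 0.0174, adjusted p = 0.157; rho = -0.758, permutation p = 0.0154, adjusted p = 0.18; r = -0.508 without the 2 libraries farthest from the median). That sum is weighted to Snap25, at a mean of 2908 CPM, and ran only from 4305 to 4575 CPM over the libraries. Slc6a5 against the share of counts from transcripts of at least 6 kb had r = 0.716 (permutation p = 0.0235, adjusted p = 0.157; rho = 0.515, permutation p = 0.134, adjusted p = 0.384; r = 0.429 without 2 libraries). Glra1 against that share had r = 0.685 (permutation p = 0.033, adjusted p = 0.165; rho = 0.636, permutation p = 0.0541, adjusted p = 0.271; r = 0.196 without 2 libraries). Both r values with that share were lower without the 2 libraries farthest from its median, whose removal also narrows its range. Slc6a5 against the lumbar Hox sum had r = -0.74 (permutation p = 0.0125, adjusted p = 0.157; rho = -0.745, permutation p = 0.018, adjusted p = 0.18; r = -0.601 without 2 libraries).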
